A study of Mus musculus with 18 samples.

Results

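NRF2 is the transcription factor that switches on antioxidant genes, and the RNA of its gene (Nfe2l2), of its inhibitor (Keap1) and of 8 genes that NRF2 is known to activate was followed in 18 libraries of mouse adipocyte RNA. The 8 target genes were Nqo1, Hmox1, Gclc, Gclm, Gsr, Txnrd1, Srxn1 and Slc7a11. These 10 genes were chosen by name for their place in the pathway, out of 33440 genes to which the transcripts in the files were assigned. All 10 passed the filter on low counts in every comparison, Slc7a11 in TRAP through the WT libraries. The study asked which genes lie downstream of the transcription factor IRF3 in adipocytes, in 2 experiments.

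In the first experiment, cells of the stromal vascular fraction (SVF) of inguinal fat from IRF3-2D mice (strain C57BL/6, written IRF-2D in the labels) were differentiated into adipocytes. These mice carry a silent allele of IRF3-2D, a constitutively active form of IRF3, which Cre recombinase switches on. The cells were transduced on day 6 with an adeno-associated virus (AAV) bearing Cre (FI3OE, 3 libraries) or GFP (called WT, 3 libraries), and RNA was taken on day 8. The WT cultures thus carry the same silent allele and also received virus, and the culture is a mixture that keeps whatever other SVF cells grew with the adipocytes. Cre and the active IRF3 that it switches on differ together between these groups, so their effects cannot be told apart. In the second experiment, translating ribosome affinity purification (TRAP) was used on epididymal fat (eWAT) of C57BL/6 mice after 8 weeks of high-fat diet (HFD) at thermoneutrality. TRAP pulls down ribosomes that carry a GFP tag, with the RNA bound to them. All of these mice carried Ad-NuTRAP, in which Cre under the adiponectin (Adipoq) promoter marks the ribosomes of adipocytes. In the FI3KO mice (6 libraries) the same Cre also deletes floxed Irf3, and in the WT mice (6 libraries) Irf3 is intact. The labels give neither the age nor the sex of these mice, and they call the libraries biological replicates without saying that each is a separate animal or culture, so p-values measure the spread between these libraries.

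NRF2 is held in the cytoplasm by KEAP1, which feeds it to a ubiquitin ligase and so to the proteasome. When oxidants or electrophiles modify KEAP1, NRF2 escapes, pairs with a small MAF protein and binds antioxidant response elements in front of genes for glutathione synthesis, thioredoxin reduction, quinone reduction, heme breakdown and NADPH supply. Because NRF2 is controlled mostly at the level of protein, the RNA of its target genes is commonly read as a measure of its activity, while several targets are also driven by other factors, such as ATF4 for the cystine carrier Slc7a11 and AP-1 and HIF for the heme oxygenase Hmox1. Adipocytes make much NADPH for fat synthesis, and macrophages in fat are a known site of Hmox1 expression.

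Promoter sequences were searched for elements known to bind NRF2, ATF4 and IRF3. RefSeq windows from 250 bases before to 50 bases after a transcription start (GRCm38.p6) were at hand for 7 of the 10 genes, and they were searched on both strands for the core of the antioxidant response element, TGACNNNGC, which 12.4% of the 32851 windows of all genes hold. A match lay in the windows of Gclm, Nfe2l2, Srxn1 and Txnrd1. The stretches around 3 of these matches, all upstream of the start, are shown because they carry the letters by which NRF2 is known to recognise its targets, with the match in capitals on the gene's strand (for Gclm chr3:122245415-122245439, plus strand, for Nfe2l2 chr2:75704887-75704911, minus strand, and for the second of 3 annotated starts of Txnrd1 chr10:82859106-82859130, plus strand).
Gclm: tcccgggcGCACCGTCAactctcac
Nfe2l2: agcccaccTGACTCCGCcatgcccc
Txnrd1: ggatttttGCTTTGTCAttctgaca

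Srxn1 and Slc7a11 were the members with the lowest adjusted p in the SVF comparison and moved in opposite directions, so their upstream windows are printed at greater length. In Srxn1 (chr2:152105274-152105515, plus strand) the capitals mark 2 matches to the AP-1 type element TGANTCA, which antioxidant response elements can also contain and which 7.81% of all windows hold. In Slc7a11 (chr3:50443615-50443863, minus strand) the capitals mark 2 matches, on opposite strands, to TGATGNAA, the C/EBP-ATF response element that ATF4 binds, which 3.97% of all windows hold.
Srxn1: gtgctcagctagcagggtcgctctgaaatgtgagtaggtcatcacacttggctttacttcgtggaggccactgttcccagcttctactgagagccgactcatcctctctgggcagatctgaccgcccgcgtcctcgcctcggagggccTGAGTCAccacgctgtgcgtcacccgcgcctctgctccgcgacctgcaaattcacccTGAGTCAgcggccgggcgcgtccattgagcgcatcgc
Slc7a11: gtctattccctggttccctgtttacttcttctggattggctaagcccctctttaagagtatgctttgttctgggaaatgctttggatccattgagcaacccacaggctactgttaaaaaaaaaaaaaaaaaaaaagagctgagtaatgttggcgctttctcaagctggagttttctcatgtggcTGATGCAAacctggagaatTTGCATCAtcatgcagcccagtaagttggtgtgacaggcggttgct
None of the windows of the 7 genes held the letters of an interferon response element (GAAA, any 2 bases, GAAA, on either strand), which 3.44% of all windows hold. A match to these letters is a description of the sequence and no measurement of binding.

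The labels were checked before the genes were compared. Summed estimated counts ran from 21541334 to 40490283 a library. Irf3 rose in FI3OE by 0.73 on the log2 scale (edgeR's quasi-likelihood test, Benjamini-Hochberg adjusted p = 3.3e-07), with the interferon-induced genes Ifit1 (2.08), Isg15 (1.88) and Rsad2 (1.97). In FI3KO TRAP these 3 genes, at 0.59 to 2.02 CPM on average in either group, were not called (Ifit1 -0.17, Isg15 -0.46 and Rsad2 -0.19). In TRAP, Irf3 fell by 0.35 in FI3KO (adjusted p = 0.0198, or by 0.36 with adjusted p = 0.0369 without WT replicates 1 and 2), and the transcript Irf3-202 had 0 reads in all 6 FI3KO libraries against 163.6 to 388.1 in WT. With an offset for transcript length, the Irf3 value in TRAP turned to 0.71, above 0 (adjusted p = 0.00181). The call was also lost with protein-coding transcripts only (adjusted p = 0.699) and with the replicate number as a block, so the label check in TRAP rests on Irf3-202 and not on the gene total. Bcl2l12 overlaps Irf3 on the opposite strand (1699 reads in all 18 libraries against 19055 for Irf3), and reads from the stretch they share cannot be told apart, since the libraries keep no strand. Adipocyte markers summed to 42910 to 49660 CPM (reads scaled to a common library total) in FI3KO TRAP and 47450 to 55040 in WT TRAP. There 7 of 18 were called higher and 3 lower. Of 11 endothelial markers tested in TRAP, 10 had estimates above 0 (median 0.42) and 1 was called higher. Their part in the TRAP values was not tested. The adipocyte markers summed to 16210 to 16240 in FI3OE and 16690 to 16980 in WT SVF cultures, where 6 of 18 were called higher and 8 lower. Macrophage markers (18 genes, Lyz2 the most abundant) summed to 2779 to 2965 CPM in the SVF cultures, so these held RNA of other cell types. Fibroblast and progenitor markers (Col1a1 the most abundant) summed to 20920 to 21000 CPM in FI3OE and 19710 to 20260 in WT, with 4 of 12 called higher and 2 lower. The adipocyte sums and the fibroblast and progenitor sums thus separated the SVF groups, while the macrophage sums overlapped. The part of these cell types in the FI3OE values was not tested. In TRAP the macrophage markers summed to 17.6 to 57.6 CPM in FI3KO and 48.2 to 134.7 in WT.

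WT TRAP replicates 1 and 2 stood apart from WT replicates 3 to 6. Their log2 CPM correlated over genes with the 6 FI3KO libraries as well (mean r = 0.976) as with WT replicates 3 to 6 (mean r = 0.976), while each of WT replicates 3 to 6 reached 0.987 to 0.991 with its own group and 0.944 to 0.953 with FI3KO. Their Irf3-202 reads (274.5 and 388.1) were in the range of the other WT libraries. The labels name no batch that would set replicates 1 and 2 apart, and they do not say whether these 2 libraries, the closest pair within any group, came from separate animals. If they did not, the WT TRAP group holds fewer than 6 animals and its p-values are too small. With the 2 averaged into 1 replicate no member's call changed. FI3KO replicates 1 and 2 also stood apart within their group, with a chi-square per degree of freedom of 35.0 to each other and of 110.9 to 268.2 to FI3KO replicates 3 to 6. The TRAP result is the one with all 12 libraries, and each member's log2 fold change is also given without WT replicates 1 and 2. That alternative was chosen after seeing the data. It removes the WT libraries that lie close to FI3KO and keeps FI3KO replicates 1 and 2, which by construction can widen the difference between the groups, so a call gained in it supports no result.

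In control cells the members spanned a wide range, and their order differed between culture and tissue. Levels of different genes were compared as TPM, a share of all transcripts that takes length into account. In the WT SVF cultures, which also held RNA of fibroblasts, progenitors and macrophages, Hmox1 was highest, at 254.8 ± 8.87 TPM (SD, n = 3), above Gclm at 152.7 ± 0.70. The part of these cell types in the levels was not tested. The transcription factor and its inhibitor followed, with Nfe2l2 at 75.1 ± 1.00 and Keap1 at 72.7 ± 2.29 TPM, and the ranges of these 2 genes overlapped. Txnrd1 (65.2 ± 2.97), Srxn1 (40.4 ± 2.63), Gsr (33.6 ± 2.35), Gclc (13.9 ± 0.67), Slc7a11 (3.52 ± 0.11) and Nqo1 (2.89 ± 0.46 TPM) came below, each with a range apart from its neighbours. When only protein-coding transcripts were summed, Gclm stood at 93.3 TPM, Keap1 (72.2) came above Nfe2l2 (69.0), and Slc7a11 (2.48) came below Nqo1 (2.89), so which of these last 2 was scarcest depends on the transcripts counted.

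**Figure D1:**
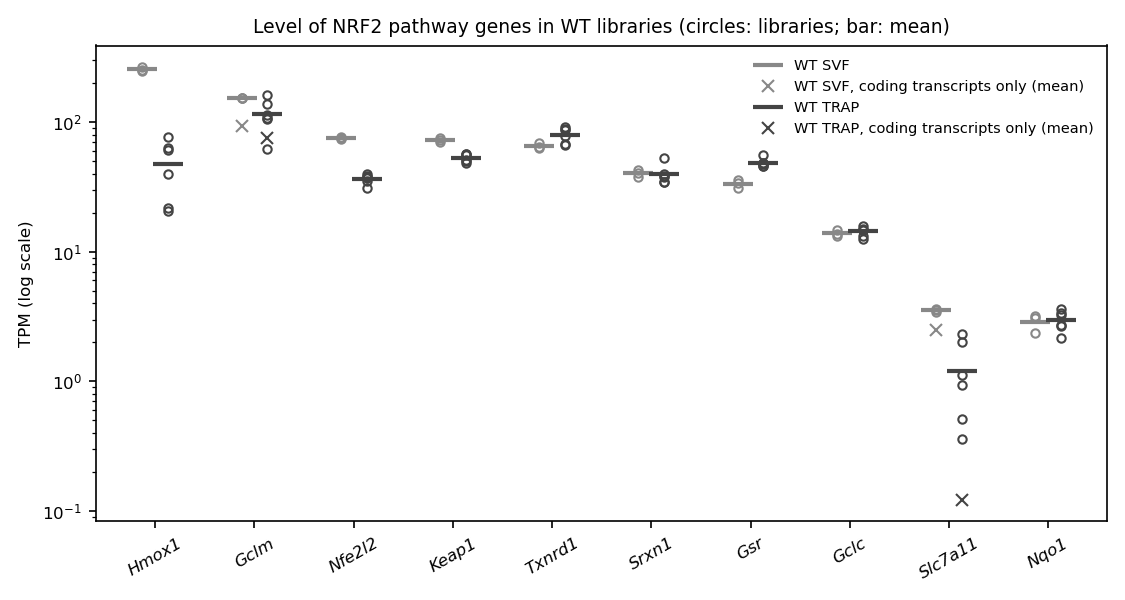
Level of each member in TPM (log axis) in the WT libraries of the SVF cultures and of TRAP, with 1 circle a library, a bar at the group mean and, for Gclm and Slc7a11, a cross at the mean over protein-coding transcripts only. Hmox1 lies near 255 TPM in the 3 SVF libraries and between 20.6 and 76.4 TPM in the 6 TRAP libraries, and Nqo1 lies under 4 TPM in both.

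In WT TRAP RNA the order was Gclm (114.5 ± 33.4 TPM, SD, n = 6), Txnrd1 (79.3 ± 10.7), Keap1 (52.9 ± 3.66), Gsr (48.5 ± 3.56), Hmox1 (47.0 ± 23.3), Srxn1 (39.6 ± 6.95), Nfe2l2 (36.4 ± 3.09), Gclc (14.3 ± 1.21), Nqo1 (2.97 ± 0.54) and Slc7a11 (1.21 ± 0.79). Only 3 of the 9 neighbouring pairs had separate ranges, against 8 of 9 in the SVF libraries, so the order from Keap1 down to Nfe2l2 is not settled by these libraries. The ranges of Gclm and Txnrd1 and those of Nqo1 and Slc7a11 overlapped as well, so their order is not settled either. The spread of Hmox1 was the widest relative to its mean among the abundant members, from 20.6 to 76.4 TPM, with WT replicates 1 and 2 lowest. When only protein-coding transcripts were summed, Gclm stood at 75.7 TPM, below Txnrd1, and Slc7a11 at 0.12 TPM.

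Set against each other, 3 members were higher in WT TRAP than in WT SVF RNA, 3 were lower and 4 did not pass the test, where 38.1% of 16454 genes tested were higher and 42.1% lower. Gsr, which reduces oxidised glutathione, was higher by 1.06 (SE 0.057) on the log2 scale, Txnrd1, which reduces thioredoxin, by 0.93 (SE 0.099), and Gclc, the catalytic subunit of the enzyme that limits glutathione synthesis, by 0.51 (SE 0.082), with adjusted p of 3.72e-08, 8.08e-06 and 0.000177. Slc7a11 was lower by a log2 difference of -3.77 (SE 0.27, adjusted p = 3.48e-07), which an offset for transcript length reduced to -1.24 (adjusted p = 0.0233). Hmox1 was lower by -2.08 (SE 0.35, adjusted p = 0.000279) and Nfe2l2 by -0.64 (SE 0.063, adjusted p = 4.79e-06). Keap1 (-0.10), Nqo1 (0.42), Gclm (0.16) and Srxn1 (0.20) were not called. Scaling by library totals instead of TMM lowers all log2 values of this comparison by about 0.46, which turns Nqo1, Gclm and Srxn1 below 0, takes the call from Gclc and leaves 2 members higher and 5 lower (3870 and 9452 of all genes). Cell-type markers differed as well. In WT TRAP 17 of 18 macrophage markers were lower and 1 higher (median -4.85). Of 12 fibroblast and progenitor markers 10 were lower and 1 higher (median -2.97), and of 18 adipocyte markers 16 were higher and 0 lower (median 1.70). Their part in the members' values was not tested. Depot, culture, cell mixture, diet and RNA isolation differ together between these groups and cannot be told apart.

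In SVF cultures with active IRF3 the members changed in both directions. Keap1, Nqo1, Gsr and Srxn1 rose in FI3OE, Gclc, Gclm and Slc7a11 fell, and Nfe2l2, Hmox1 and Txnrd1 were not called. That is 4 of 10 members higher, where 20.2% of the 16105 genes tested were higher, and 3 of 10 lower, where 16.8% were lower. The 3 FI3OE values lay wholly above or below the 3 WT values in 7 members, as they did in 49.8% of all genes. The changes were small: 0 of 10 passed an absolute log2 fold change of 1 as well, against 3.62% of all genes, and the median over the members was 0.08 against -0.00 over all genes.

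**Figure D2:**
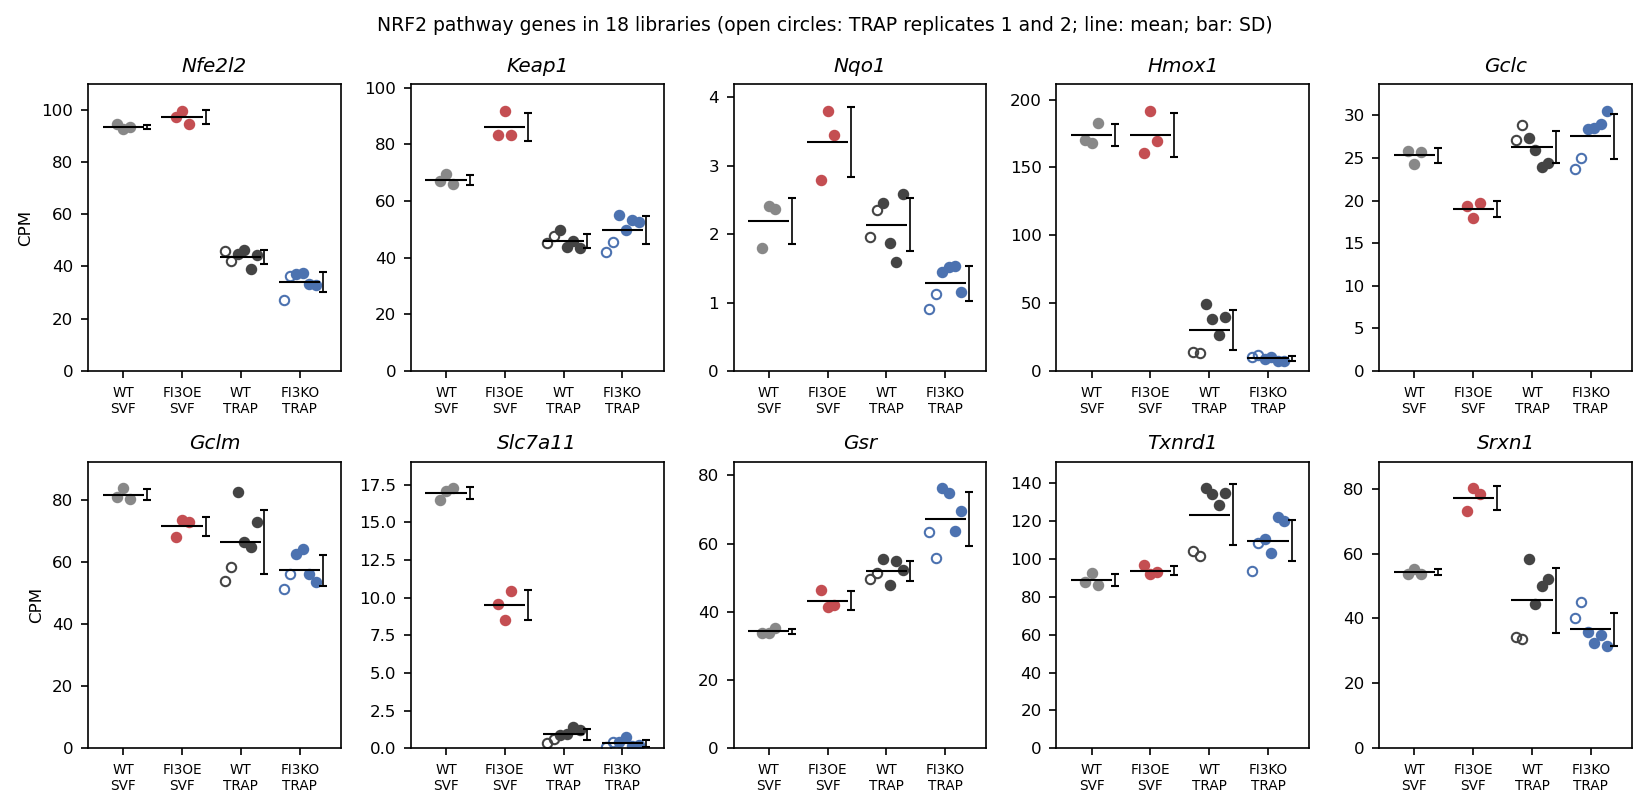
CPM of each member in every library of the 4 groups, on linear axes from 0, with 1 circle a library (open for TRAP replicates 1 and 2), a line at the group mean and a bar for the SD. Srxn1 and Slc7a11 separate FI3OE from WT SVF without overlap, and Hmox1 separates FI3KO (7.42 to 12.1 CPM) from WT TRAP (13.3 to 49.5 CPM).

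Of the regulators, Nfe2l2 itself (ENSMUSG00000015839.6, chr2:75675513-75704641, minus strand, GRCm38), which encodes NRF2, was at 97.3, 99.6 and 94.3 CPM in FI3OE and 94.3, 92.6 and 93.3 CPM in WT. The groups overlapped at their edges, and the log2 fold change of 0.07 (SE 0.036, 95% interval -0.01 to 0.15, adjusted p = 0.143) did not pass the test. Keap1 (ENSMUSG00000003308.15, chr9:21229730-21239361, minus strand), the inhibitor, was at 83.4, 91.9 and 83.3 CPM in FI3OE and 67.0, 69.5 and 66.0 CPM in WT. All 3 FI3OE cultures were above all 3 WT cultures, and Keap1 rose by 0.37 (SE 0.048, adjusted p = 0.000105). An antisense gene, Gm16754, overlaps Keap1 but held 341 reads in all 18 libraries against 30495 for Keap1.

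Nqo1 (ENSMUSG00000003849.8, chr8:107388225-107403206, minus strand), the quinone reductase most used as a NRF2 readout, was at 2.79, 3.80 and 3.44 CPM in FI3OE and 1.80, 2.41 and 2.36 CPM in WT. The groups did not overlap, and Nqo1 rose by 0.63 (SE 0.18, adjusted p = 0.0192). These values rest on 43 to 127 reads a library, and the call was lost when FI3OE replicate 2 (log2 fold change 0.50), FI3OE replicate 3 or WT replicate 1 was left out, with an offset for transcript length and with all 18 libraries in 1 fit. Hmox1 (ENSMUSG00000005413.8, chr8:75093621-75100589, plus strand), which opens the heme ring to biliverdin, iron and carbon monoxide, was at 160.7, 191.9 and 169.7 CPM in FI3OE and 170.2, 168.2 and 182.9 CPM in WT. Its groups overlapped fully, with a log2 fold change of 0.02 whose 95% interval runs from -0.12 to 0.16 (adjusted p = 0.837). The macrophage markers of the same cultures, a known source of Hmox1, summed to 2826 to 2880 CPM in FI3OE and 2779 to 2965 CPM in WT. Single markers moved both ways, 6 of 18 higher (Fcgr1 by 0.51, Mpeg1 by 0.49) and 4 lower (Mrc1 at -0.87, Itgam at -0.59), and their part in the Hmox1 level was not tested.

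The 4 genes of glutathione supply and recycling split. Slc7a11 (ENSMUSG00000027737.10, chr3:49892526-50443614, minus strand), the carrier that brings in cystine for glutathione, was at 9.57, 8.52 and 10.5 CPM in FI3OE and 16.5, 17.1 and 17.3 CPM in WT. The groups were far apart, and Slc7a11 fell by 0.81 (SE 0.086, adjusted p = 2.07e-05), the largest change of any member in these cultures. With all 18 libraries in 1 fit this call was lost (adjusted p = 0.254). Gclc (ENSMUSG00000032350.9, chr9:77754535-77794485, plus strand), the catalytic subunit of glutamate-cysteine ligase, was at 19.3, 17.9 and 19.7 CPM in FI3OE and 25.8, 24.3 and 25.7 CPM in WT. It fell by 0.40 (SE 0.058, adjusted p = 0.000246), again without overlap. Gclm (ENSMUSG00000028124.15, chr3:122245557-122270732, plus strand), the modifier subunit of the same enzyme, was at 68.1, 73.4 and 73.0 CPM in FI3OE and 80.9, 84.0 and 80.5 CPM in WT. It fell by 0.17 (SE 0.043, adjusted p = 0.00793), but with an offset for transcript length the value was -0.06 and the call was lost. Gsr (ENSMUSG00000031584.16, chr8:33652523-33698163, plus strand), glutathione reductase, was at 46.5, 41.5 and 41.9 CPM in FI3OE and 33.8, 33.9 and 35.1 CPM in WT. In contrast to Gclc and Gclm it rose, by 0.35 (SE 0.052, adjusted p = 0.000274).

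Both genes of thioredoxin and peroxiredoxin recycling had values above 0, and 1 of them passed the test. Srxn1 (ENSMUSG00000032802.8, chr2:152105516-152111376, plus strand), sulfiredoxin, which restores over-oxidised peroxiredoxins, was at 73.0, 80.3 and 78.3 CPM in FI3OE and 53.6, 55.2 and 53.8 CPM in WT. It rose by 0.53 (SE 0.046, adjusted p = 4.56e-06), the lowest adjusted p of the 10. Txnrd1 (ENSMUSG00000020250.10, chr10:82833951-82897712, plus strand), cytosolic thioredoxin reductase, was at 96.5, 91.9 and 93.0 CPM in FI3OE and 87.8, 92.6 and 86.2 CPM in WT. The groups overlapped, and the log2 fold change of 0.10 (SE 0.039, adjusted p = 0.0744) did not pass the test, though it did (adjusted p = 0.0386) without WT replicate 2.

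**Figure D3:**
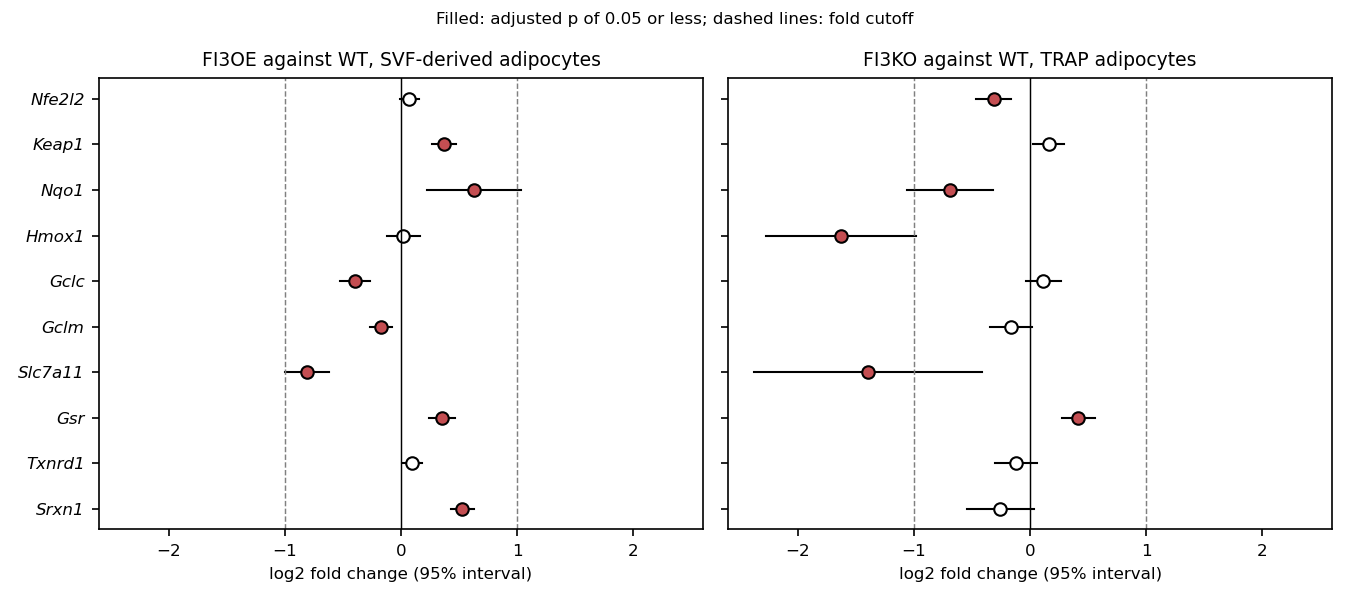
Log2 fold change of each member with its 95% interval, for FI3OE against WT SVF and for FI3KO against WT TRAP (all 12 libraries), filled where the adjusted p is 0.05 or less, with dashed lines at a log2 fold change of -1 and 1. Slc7a11 is lowest among the members in the SVF comparison (-0.81) and Hmox1 in TRAP (-1.63).

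The wider pathway was read from 6 lists with 70 further genes, of which 65 were tested. In FI3OE 36 of the 65 rose, 14 fell and 15 did not pass the test, with a median of 0.18, where 20.2% of all genes were higher and 16.8% lower. The NADPH list had the most even direction: 6 of its 7 genes rose and the remaining gene, Pgls, had a value of 0.06 (median 0.34), among them Taldo1 (0.59) and Tkt (0.40), enzymes of the pentose phosphate pathway, and Pgd (0.47), which yields NADPH in it. Of 13 tested genes of glutathione synthesis and transfer, 10 rose and 1 fell (median 0.34). Mgst2, a microsomal glutathione transferase, rose by 1.07, glutaredoxin (Glrx) by 0.86 and the glutathione peroxidase Gpx1 by 0.72, while Gstm1, which has close relatives among which reads can be split, fell by 0.25. Gss, which completes glutathione synthesis after the step of Gclc and Gclm, rose by 0.16 (adjusted p = 0.0411). With all 18 libraries in 1 fit the calls of Tkt and Gstm1 were lost.

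In the thioredoxin and peroxide list 6 of 11 genes rose and 4 fell (median 0.19). Peroxiredoxins Prdx6 (0.48) and Prdx5 (0.46) and thioredoxin Txn1 (0.45) rose. Catalase (Cat, -0.41), the thioredoxin-binding protein Txnip (-0.38) and mitochondrial thioredoxin reductase Txnrd2 (-0.21) fell, the last of these with a call that 4 of the 6 left-out libraries removed. The Txnrd2 call was also lost by DESeq2, with an offset for transcript length and with all 18 libraries in 1 fit. In the heme and iron list 4 of 8 rose and 2 fell (median 0.13). The biliverdin reductases Blvra (0.44) and Blvrb (0.23) rose, as did the iron exporter Slc40a1 (0.19), while the ferritin heavy chain Fth1 (-0.36) and the porphyrin carrier Abcb6 (-0.33) fell. The calls of Blvrb and Slc40a1 were lost when any of several libraries was left out. With all 18 libraries in 1 fit the calls of Blvra, Blvrb, Slc40a1 and Fth1 were lost. An offset for transcript length removed those of Blvrb, Slc40a1 and Abcb6.

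Genes that handle quinones, aldehydes and conjugates rose in 8 of 14 cases and fell in 3 (median 0.25). Ephx1, microsomal epoxide hydrolase, went from 107.2 to 265.0 CPM, a rise of 1.32 (SE 0.053, adjusted p = 9.39e-09), Osgin1 rose by 0.70 and Ugdh, which makes the sugar donor for glucuronidation, by 0.62. The conjugate pumps Abcc4 (-0.67) and Abcc1 (-0.37) and the aldehyde oxidase Aox1 (-0.60) fell. Among regulators and partners of NRF2, 2 of 12 rose and 4 fell (median -0.01). The small MAF gene Mafk (0.27) and the ubiquitin ligase component Rbx1 (0.18) rose, while Nfe2l1, the related factor NRF1, (-0.42), the small MAF gene Mafg (-0.25) and the kinase gene Gsk3b (-0.18) fell. With all 18 libraries in 1 fit the calls of Osgin1, Mafk, Rbx1, Mafg and Gsk3b were lost, and that of Gsk3b also with an offset for transcript length.

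A list of ATF4 stress response genes was kept beside the pathway because Slc7a11 is shared by NRF2 and ATF4. In FI3OE 10 of its 12 genes fell and 2 rose (median -0.49 against -0.00 over all genes). Trib3, a pseudokinase that ATF4 induces, went from 96.7 to 24.5 CPM, a fall of 1.95 (SE 0.085, adjusted p = 1.56e-08), Phgdh, the entry enzyme of serine synthesis, fell by 1.45 and Chac1, which breaks down glutathione, by 0.94. Atf3 (0.77) and Sesn2 (0.41) rose, and both calls were lost with all 18 libraries in 1 fit. The fall of Slc7a11 thus stood beside falls of 10 of 12 ATF4 list genes and rises of 36 of 65 genes of the NRF2 lists (29 with protein-coding transcripts only, 31 with a length offset and 13 with all 18 libraries), and its relation to either was not tested.

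**Figure D4:**
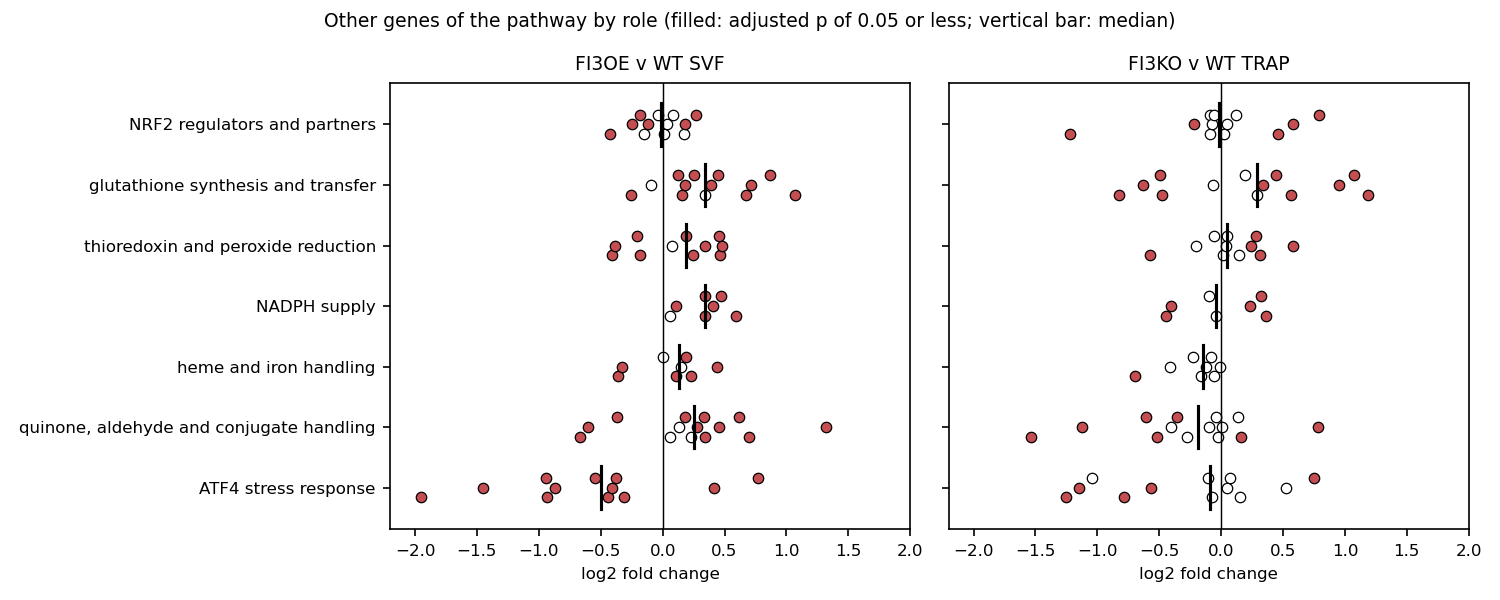
Log2 fold change of each tested gene of the 6 pathway lists and of the ATF4 list in FI3OE against WT SVF and in FI3KO against WT TRAP, 1 circle a gene, filled where the adjusted p is 0.05 or less, with a vertical bar at the list's median. In FI3OE 36 of 65 pathway genes were higher and 14 lower, and in FI3KO TRAP 18 were higher and 15 lower.

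In eWAT adipocytes without IRF3 the members that passed the test were mostly lower. Nfe2l2, Nqo1, Hmox1 and Slc7a11 fell in FI3KO, Gsr rose, and Keap1, Gclc, Gclm, Txnrd1 and Srxn1 were not called. That is 4 of 10 members lower, where 18.3% of the 13624 genes tested were lower, and 1 of 10 higher, where 19.1% were higher. The 4 include Slc7a11, which entered the test through the WT libraries, where it was higher. With at least 10 counts in every library, 3 members were lower and 1 higher (2429 and 2406 of all genes). When the log2 fold change also had to reach 1 in size, 2 of 10 (Hmox1 and Slc7a11) were called, against 6.61% of all genes. Of these, Slc7a11 had passed the count filter through the WT libraries. The groups did not overlap in CPM in 4 members (Nfe2l2, Nqo1, Hmox1 and Gsr), as in 15.2% of all genes, and the members' median was -0.21 against 0.02. Without WT replicates 1 and 2, the count was 7 lower and 1 higher of 10, where 42.4% of 14016 genes were called in either direction.

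Nfe2l2 ran from 27.2 to 37.6 CPM in FI3KO (median 34.8) and from 39.0 to 46.5 CPM in WT (median 44.4). Every FI3KO library was below every WT library, and Nfe2l2 fell by 0.32 (SE 0.071, adjusted p = 0.0045), or by 0.30 (adjusted p = 0.0105) without WT replicates 1 and 2. Keap1 ran from 42.2 to 55.1 CPM in FI3KO (median 51.2) and from 43.5 to 49.7 CPM in WT (median 45.5). Its groups overlapped, and its log2 fold change was 0.16 (SE 0.061, adjusted p = 0.0543), or 0.18 (adjusted p = 0.0629) without those 2 libraries. DESeq2 and a fit of protein-coding transcripts only, both with all 12 libraries, called Keap1 higher, as did edgeR without FI3KO replicate 1 or without FI3KO replicate 2.

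Hmox1 changed most in size. It ran from 7.42 to 12.1 CPM in FI3KO (median 9.42) and from 13.3 to 49.5 CPM in WT (median 32.3). All FI3KO libraries were below all WT libraries, but WT replicates 1 and 2, at 13.8 and 13.3 CPM, were close to FI3KO, while WT replicates 3 to 6 lay between 26.2 and 49.5 CPM. Hmox1 fell by 1.63 (SE 0.30, adjusted p = 0.00141), which is 3.09-fold, and by 1.98 (SE 0.17, adjusted p = 1.02e-05) without WT replicates 1 and 2.

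The macrophage markers moved with Hmox1 across these libraries. Of 15 macrophage markers tested, 13 fell in FI3KO, and the estimates of all 15 were below 0 (median -1.64), and their sum over the list of 18 was 44.1, 57.6, 20.7, 17.6, 21.3 and 20.4 CPM in FI3KO replicates 1 to 6 and 49.4, 48.2, 134.7, 91.7, 104.6 and 120.1 CPM in WT replicates 1 to 6. The 4 WT libraries with the highest sums were those with the highest Hmox1. Fcgr1 was at or under 3 reads a library in FI3KO, and the most abundant marker, Lyz2, reached at most 24.7 CPM in TRAP against at least 740.7 CPM in the SVF cultures. The part of macrophage RNA in the Hmox1 result was not tested, and in bulk RNA fewer cells of a type and less RNA per cell cannot be told apart. Of 11 fibroblast and progenitor markers tested, 9 had estimates below 0, 4 were called lower and 1 higher, and the list of 12 summed to 930.1 to 1668 CPM in FI3KO against 1447 to 2706 CPM in WT. Their part in the members' values was not tested.

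Nqo1 ran from 0.91 to 1.53 CPM in FI3KO (median 1.30) and from 1.59 to 2.59 CPM in WT (median 2.15), on 23 to 89 reads a library. The groups were narrowly separate, and Nqo1 fell by 0.69 (SE 0.17, adjusted p = 0.00795), or by 0.67 (adjusted p = 0.0198) without WT replicates 1 and 2. Nqo1 thus rose with active IRF3 in culture and fell with loss of IRF3 in eWAT. The difference between the experiments was not tested, since tissue, culture and RNA isolation differ with it.

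Among the glutathione genes, Gsr ran from 55.6 to 76.3 CPM in FI3KO (median 66.5) and from 48.0 to 55.6 CPM in WT (median 51.8). The lowest FI3KO library, at 55.63, lay just above the highest WT library, at 55.58. Gsr rose by 0.42 (SE 0.067, adjusted p = 0.000655), and by 0.41 (adjusted p = 0.00213) without WT replicates 1 and 2, the same direction as in FI3OE. Gclc ran from 23.7 to 30.5 CPM in FI3KO (median 28.5) and from 23.9 to 28.9 CPM in WT (median 26.5), with a log2 fold change of 0.11 (SE 0.070, adjusted p = 0.228) and 0.17 (adjusted p = 0.0761) without those 2 libraries. Its groups overlapped over most of their range. Gclm ran from 51.4 to 64.3 CPM in FI3KO (median 56.1) and from 54.0 to 82.6 CPM in WT (median 65.6). It was not called (log2 fold change -0.16, SE 0.083, adjusted p = 0.138), and the value was -0.26 (adjusted p = 0.0128) without WT replicates 1 and 2. With all 12 libraries the Gclm value turned to 0.10 with an offset for transcript length, and was called at -0.26 with protein-coding transcripts only.

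Slc7a11 was barely present on adipocyte ribosomes. It had 2.01 to 23.9 reads a library in FI3KO and 11.1 to 37.4 in WT, which is 0.08 to 0.74 CPM (median 0.30) against 0.37 to 1.41 CPM (median 0.94). The groups overlapped, and Slc7a11 fell by 1.395 (SE 0.46, adjusted p = 0.029), or by 1.70 (adjusted p = 0.0121) without WT replicates 1 and 2. The call was lost with a length offset and when FI3KO replicate 5 or 6, or WT replicate 3, 4, 5 or 6, was left out. Every WT library held at least 11.1 reads, while FI3KO libraries went down to 2.01. Slc7a11 thus passed the count filter through WT, where it was higher, and its call is given as a description only. Only 68.9% of its reads in FI3KO and 71.3% in WT were assigned to the long coding transcript Slc7a11-201, against 86.0% in FI3OE and 89.0% in WT SVF.

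Neither Txnrd1 nor Srxn1 was called by the edgeR fit of all 12 libraries, while adding an offset for transcript length gave a call for Srxn1 (-0.34). Txnrd1 ran from 93.5 to 122.2 CPM in FI3KO (median 109.5) and from 101.4 to 137.5 CPM in WT (median 131.2). Its log2 fold change was -0.12 (SE 0.083, adjusted p = 0.273), and -0.23 (adjusted p = 0.0196) without WT replicates 1 and 2. Srxn1 ran from 31.6 to 44.9 CPM in FI3KO (median 35.4) and from 33.8 to 58.5 CPM in WT (median 47.2). Its log2 fold change was -0.26 (SE 0.13, adjusted p = 0.148), and -0.42 (adjusted p = 0.00858) without those libraries. In both genes WT replicates 1 and 2 were the lowest of the WT libraries and lay among FI3KO.

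The members' values in replicates 3 to 6 and in replicates 1 and 2 are set side by side as a description. The sets were drawn after WT replicates 1 and 2 were seen to lie close to FI3KO, which by itself makes a smaller difference in them likely, and the replicate numbers do not pair FI3KO with WT libraries, so no test is read from them. An interaction term over all 12 libraries passed its threshold for Hmox1, Srxn1 and Gclc, 3 of 10 members, and for 26.5% of all genes, a share close to that of the members. For Hmox1 replicates 3 to 6 gave a log2 fold change of -2.14 and replicates 1 and 2 gave -0.22, a difference of -1.92 (SE 0.28). For Srxn1 the signs were opposite, -0.56 in replicates 3 to 6 and 0.38 in replicates 1 and 2, a difference of -0.94 (SE 0.13). Srxn1 stood at 40.3 and 44.9 CPM in FI3KO replicates 1 and 2 against 34.4 and 33.8 CPM in WT replicates 1 and 2, and at 31.57 to 35.98 CPM in FI3KO replicates 3 to 6 against 44.4 to 58.5 CPM in WT.

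For Gclc the difference was 0.39 (SE 0.10), from 0.24 in replicates 3 to 6 and -0.14 in replicates 1 and 2. Replicates 3 to 6 alone gave a call for all 10 members, 3 higher (Keap1, Gclc and Gsr) and 7 lower, where 50.6% of genes were called. Replicates 1 and 2 alone gave 0 calls by edgeR, where 3.56% of genes were called, and 4 members (Gsr, Nfe2l2, Nqo1 and Srxn1) had an unadjusted p under 0.05. Srxn1 came nearest to a call (adjusted p = 0.0645).

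**Figure D5:**
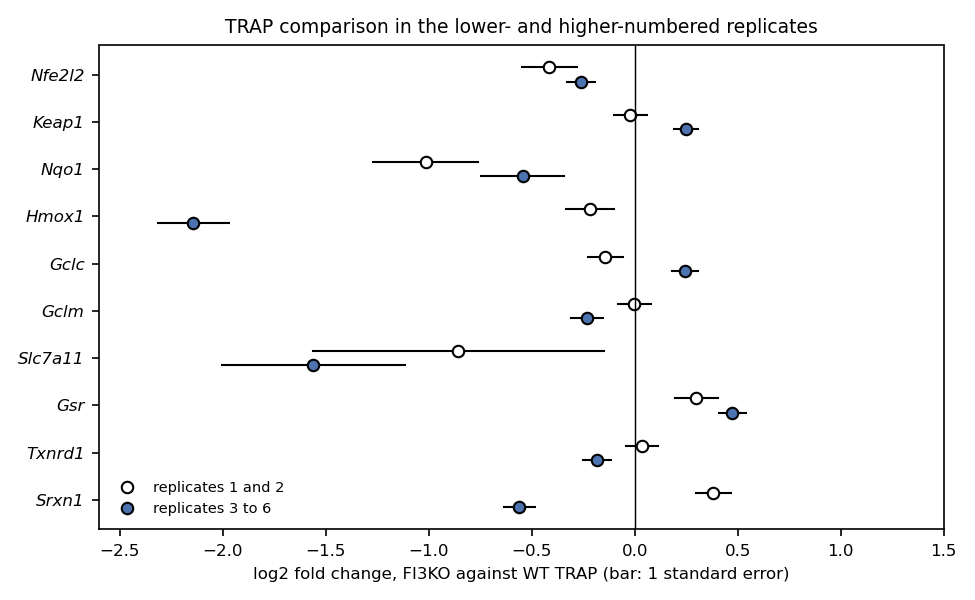
Log2 fold change of FI3KO against WT TRAP for each member, fitted in replicates 3 to 6 and in replicates 1 and 2 separately, with bars of 1 standard error. Hmox1 (-2.14 against -0.22) and Srxn1 (-0.56 against 0.38) lie furthest apart relative to their errors, in sets drawn after the libraries were seen.

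Across the wider pathway FI3KO TRAP had no common direction, with 18 of 65 tested genes higher, 15 lower and 32 not called (median -0.04), where 19.1% of all genes were higher and 18.3% lower. Scaling by library totals made this 13 higher and 19 lower, and leaving out WT replicates 1 and 2 made it 18 higher and 16 lower. In glutathione synthesis and transfer 6 of 13 rose and 4 fell. Gpx1 went from 427.8 to 943.2 CPM, a rise of 1.19 (SE 0.17, adjusted p = 0.000299), the glutathione transferase Gsta3 rose by 0.95 and Gpx4, which reduces lipid peroxides, by 0.56, while Gstm1 fell by 0.63. Gsta3 and Gstm1 belong to families with near-identical copies, so their reads may be split. Gpx1 rose and Gstm1 fell in both experiments, the fall of Gstm1 in FI3OE not called with all 18 libraries in 1 fit. In the thioredoxin and peroxide list 4 of 11 rose, Txnip (0.58) the most, and Prdx6 (-0.58), which had risen in FI3OE, was the only gene of the list that fell.

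Of genes that handle quinones, aldehydes and conjugates 2 of 14 rose and 5 fell. Ephx1 went from 125.7 to 55.6 CPM, a fall of 1.12 (SE 0.15, adjusted p = 0.000216), and Osgin1 from 13.3 to 4.43 CPM, a fall of 1.53 (SE 0.30, adjusted p = 0.00206). Both had been called higher in FI3OE, Osgin1 not with all 18 libraries in 1 fit. Ugt1a6a, which shares exons with its neighbours in the Ugt1a cluster, fell by 0.52. In the heme and iron list the estimates of all 8 genes were below 0 and 1 of them passed the test, Blvra (-0.70), which had risen in FI3OE. In the NADPH list 3 of 7 rose and 2 fell, with Pgd at -0.44. The repressor gene Bach1, whose protein competes with NRF2 for the same elements and holds Hmox1 down, rose by 0.58 (27.7 to 40.1 CPM, adjusted p = 0.00139), and Sqstm1, whose protein p62 binds KEAP1, fell by 0.22.

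Of the regulators and partners 3 of 12 rose and 2 fell. Of the ATF4 list 1 of 12 rose and 4 fell (median -0.09), with Cth, which makes cysteine, at -1.26, and both subunits of the large amino acid carrier, Slc7a5 (-1.14) and Slc3a2 (-0.57), lower. Slc3a2 is also the partner chain of Slc7a11. In replicates 1 and 2 alone, only Txnip, Ugt1a6a and Slc3a2 were still called among the pathway and ATF4 list genes named for FI3KO TRAP. Gpx1, Gpx4, Gsta3, Gstm1, Pgd, Sqstm1, Cth and Slc7a5 were not called. Bach1 (0.43), Ephx1 (-0.53), Osgin1 (-0.46), Blvra (-0.21) and Prdx6 (-0.16) were not called either, and had smaller values. Smaller values were not particular to these genes. Over all alternatives the value nearest 0 was -0.61 for Cth, -0.40 for Slc7a5, 0.40 for Gsta3 and 0.27 for Gpx4. It was -0.18 for Pgd, -0.05 for Sqstm1, -0.49 for Gstm1 and 0.97 for Gpx1.

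Set side by side, the 10 members did not mirror each other between the experiments. Nqo1 was called higher in FI3OE and lower in FI3KO. Gsr was called higher in both and Slc7a11 lower in both, in FI3KO on few reads and after passing the count filter through WT. Keap1, Srxn1, Gclc and Gclm were called in FI3OE and, by the edgeR fit of all 12 libraries, not in FI3KO, whereas Nfe2l2 and Hmox1 were called in FI3KO and not in FI3OE. The experiments share no libraries, and whether the effects differ was not tested.

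Within the 12 TRAP libraries, with the group means removed, Hmox1 and Srxn1 varied together (r = 0.87 for log2 CPM), as did Gclc and Keap1 (r = 0.81) and Gclm and Hmox1 (r = 0.78), while Gclc and Srxn1 went opposite ways (r = -0.64). Among the genes most like Hmox1 were Knop1 (r = 0.98) and Creb3 (r = 0.97), and among those most like Srxn1 were H2-DMb1 and Tmem181a (each r = 0.97). These are descriptions over 12 points that share the split between replicates 1 and 2 and replicates 3 to 6.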

How the data were processed

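RNA was depleted of ribosomal RNA, made into unstranded Nextera XT libraries and sequenced on a HiSeq2500. Per the submitters' processing notes and the study's methods, the authors trimmed reads with fastp, dropping those under 24 nt, and quantified them with Salmon (version 1.4.0) on GENCODE transcripts of GRCm38. The deposited files hold, for 118733 transcripts in each of 18 libraries, estimated counts (not whole, not normalized), TPM and effective length.

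Here transcripts were assigned to genes by GENCODE M21, and their estimated counts were added up for each gene (117850 transcripts matched by identifier, 99.3%; unmatched reads were 0.38% to 1.08% of a library and were left out) and rounded. CPM were taken over these sums, which ranged from 21541334 to 40490283. Each comparison was fitted over all genes with edgeR (version 4.0.16, R 4.3.3, limma 3.58.1): filterByExpr, TMM, glmQLFit and glmQLFTest, Benjamini-Hochberg adjustment, called at an adjusted p of 0.05 or less. SE is the absolute log2 fold change over the square root of F. Scripts were tested on simulated data with 200 changed genes. DESeq2 (version 1.42.0), other normalizations, filters, a length offset, a replicate block, all 18 libraries together, replicate sets and leaving out each library were alternatives.

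The members and lists were chosen with earlier results of these data known. All members are named. Of each pathway list and of the ATF4 list, up to 3 genes with the largest rise and up to 3 with the largest fall are named. They were taken among called genes whose average log2 CPM reached 1 and whose groups did not overlap in CPM. Gss and Pgls are named outside this rule. Likeness was Pearson's r of log2 CPM over genes whose average log2 CPM reached 3. Some of the genes most alike are not reported here. WT TRAP replicates 1 and 2 were the closest pair (chi-square per degree of freedom 2.54, against 8.42 or more for other TRAP pairs within a group and 3.85 or more in SVF). They differed by more than counting noise, as 2 libraries of 1 animal also could, and were kept as 2 libraries. Replicate numbers did not pair the samples: same-numbered deviations correlated at -0.34 to 0.11 in TRAP and at -0.03 to 0.03 in SVF.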

Additional observations from a re-analysis of the deposited data

Results flagged for a closer look

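An interaction of genotype and replicate set (replicates 3 to 6 against 1 and 2) in TRAP passed its threshold for 3 of 10 members and for 26.5% of all genes, so the share among the members is near that of all genes. The log2 fold change in replicates 3 to 6 minus that in replicates 1 and 2 was -1.92 for Hmox1, -0.94 for Srxn1 and 0.39 for Gclc. The replicate sets were defined after WT replicates 1 and 2 were seen to lie close to FI3KO in earlier results, which makes a smaller difference in replicates 1 and 2 likely by itself, so these values are a description. The sets are no labelled batch, so set and any unrecorded difference between these libraries cannot be told apart. Looking for a library far from the others of its group found 0 in 28 sets of values, where chance gives about 1 in 20, and groups of 3 were not tested.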

How the results depend on the processing

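In the SVF comparison 7 members were called, 5 with a length offset (Nqo1 and Gclm lost) and 4 with all 18 libraries in 1 fit (Nqo1, Gclm and Slc7a11 lost), where 20 pathway genes (50 as reported), 1572 genes in all (5960) and 342 with the fold cutoff (583) were called. A length offset gave 3800 calls in all, and testing against the fold cutoff (glmTreat) 175. The Hmox1 value crossed 0 with the length offset (-0.0013), with protein-coding transcripts only (-0.0078) and without FI3OE replicate 2, in a leave-one-out range of -0.064 to 0.081.

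In TRAP, 5 members were called, 10 in replicates 3 to 6, 0 in replicates 1 and 2 and 8 without WT replicates 1 and 2. All 12 libraries gave 6 by DESeq2, 7 with protein-coding transcripts only and 4 with at least 10 counts. Replicates 1 and 2 alone gave 500 calls in all (5095 as reported) and 3 in the pathway (33). With the fold cutoff 2 members were called, 1 with at least 10 counts in every library, 1 with the length offset, 0 by glmTreat, 0 in replicates 1 and 2, and 1 to 2 when a library was left out. Genes in all with the cutoff (901) became 574 with at least 10 counts, 1355 with all 18 libraries, 92 by glmTreat, 1868 in replicates 3 to 6, 191 in replicates 1 and 2 and 1432 without WT replicates 1 and 2. Signs turned with the length offset for Gclm (0.10) and Irf3 (0.71), and in replicates 1 and 2 for Keap1 (-0.022), Gclc (-0.14), Txnrd1 (0.036) and Srxn1 (0.38). Ifit1 turned in replicates 3 to 6 (0.40), with WT replicates 1 and 2 averaged (0.0018), without both (0.32) and without WT replicate 1, in a leave-one-out range of -0.30 to 0.049, and Rsad2 in replicates 3 to 6 (0.16) and without WT replicates 1 and 2 (0.10). Between WT groups, library totals turned Nqo1 (-0.035), Gclm (-0.30) and Srxn1 (-0.25), and at least 10 counts turned Gclm (-0.021). The causes were not tested.

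With the replicate number as a block, 7 and 5 members, 5658 and 3632 genes in all and 47 and 24 pathway genes were called in SVF and TRAP, and no member's call changed. Since the numbers do not pair the samples, this fit carries no further meaning. Of 619 member values under alternatives, 565 kept their side of the threshold, 21 lost a call, 21 gained it and 12 changed sign. Slc7a11 and Nqo1 in TRAP rest on few reads, which limits both.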
